A study of Mus musculus with 10 samples.

Results

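The 5 wild-type livers of this series were described on their own, with no comparison between genotypes. They were chosen by their labels and make up 5 of the 10 RNA sequencing libraries of the series. Each library came from the liver of a female wild-type (WT) fetus at E18.5, which is shortly before birth in the mouse. The fetuses were littermates of fetuses that inherited a deletion of the microRNA gene Mir483 from the father (Mir483Pat-KO), and carried no deletion themselves. Per the methods, the line was made from C57BL/6N embryonic stem cells and kept by crosses to C57BL/6J mice. Neither the labels nor the methods say which of the 5 fetuses shared a litter, and the identification number of WT replicate 5 lies apart from those of the other 4 in the labels. The spread between libraries may therefore hold differences between litters as well as between fetuses, and part of it may be technical.

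The liver at the end of gestation does the work of more than 1 organ. Hepatocytes secrete the proteins of the plasma, among them albumin, the fetal carrier protein alpha-fetoprotein, transferrin, fibrinogen and the apolipoproteins, and begin to take on the metabolic work of the adult. Between them lie the erythroblasts, megakaryocytes and granulocytes of fetal blood formation, which by this age is moving to spleen and bone marrow. A whole-liver library mixes the RNA of all of these cells, so in the values below fewer cells of a type and less RNA per cell cannot be told apart.

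The libraries held 11410491 to 14490199 counts assigned to genes. Levels are given as CPM, the counts of a gene scaled to a total of 1000000 for each library, where a count of 3 is worth 0.207 to 0.263 CPM. CPM takes no account of length, and different genes are ranked by TPM, which is scaled in the same way after division by the length of the annotated exons, except where counts are named. Values are the mean ± SD of the 5 libraries, or the 5 values in the order of WT replicates 1 to 5. No groups were compared, because there is a single one. The female sex given in the methods was matched by the data. Xist, the RNA that coats the inactive X chromosome, had 891 to 1535 CPM. The 4 Y-linked genes Ddx3y, Eif2s3y, Kdm5d and Uty had a single count together. The spread over 13938 to 14291 genes was wider than counting gives in each of the 10 pairs of libraries, with a chi-square of 7.37 to 20.4 per gene, so no 2 libraries were copies of each other. GC-rich genes were lower in WT replicates 1, 2 and 3 and higher in WT replicates 4 and 5. The Spearman correlation of each gene's departure with its GC content, across 8998 genes within 1 library, was -0.229, -0.454, -0.318, 0.417 and 0.614, and values with this trend removed are given for the mitochondrial genes, for some of the most variable genes and for 4 of the gene lists. WT replicate 2 differed from the other 4 libraries at the imprinted Kcnq1 domain and in placental genes, as given further on. Numbers of list members highest or lowest in a library are given below without the share of all genes beside them. They describe the lists, and do not show that a list differs from other genes in that library.

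Transcripts were counted for 17304 genes in all 5 libraries, and 12807 genes reached 1 CPM in each of them. The counts were concentrated in few genes. Albumin alone held 11.7 to 12.95% of the counts, and 149 to 191 genes, depending on the library, held 50%. At the other end, 4895 genes were needed for 90% of the mean counts.

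Alb was the highest gene in all 5 libraries, at 148314, 156986, 144138, 142701 and 152394 TPM, with a mean of 148907 TPM ± 5896. This level depends on the length used, and with the median length of the annotated transcripts in place of all exons it was 307000 TPM, where 14 of the 20 highest genes by TPM stayed among them. Second by both measures came Trf (transferrin, the iron carrier of plasma), at 44468, 39437, 42245, 42997 and 47641 TPM. The level of Trf depends on how reads were assigned, since 63.5% of its exonic bases are shared in the annotation with exons of another gene on the same strand. Ahsg (fetuin-A, a carrier of calcium phosphate) followed with 39742 TPM ± 2704, and Afp (alpha-fetoprotein) reached 23689.6 TPM ± 2126. The ratio of Alb to Afp in TPM was 6.98, 6.60, 5.32, 6.16 and 6.59 in the 5 libraries, so Alb exceeded Afp in each of them.

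By TPM, 13 of the 20 highest genes were on the list of 130 plasma proteins, and 38 of the 100 highest. Besides the 4 named above, these were Apoa1 (18211 TPM ± 1153), Apoa2 (8620.1 TPM ± 552), Apoe (5816 TPM ± 742) and Apoh (5478 TPM ± 426.4), which are apolipoproteins, and Serpina1e (14387 TPM ± 1210.4), a protease inhibitor whose near-identical neighbours make its counts uncertain. The group also held the 3 fibrinogen chains. Fga had 10204, 10679, 11149, 10625 and 11686 TPM, Fgg had 10528, 10154, 10238, 10442 and 10976 TPM and Fgb had 7823, 8199, 7812, 7911 and 8667 TPM. The 3 genes encode the subunits of 1 clotting protein, and Fgb was the lowest of them by TPM in every library. Ttr, the carrier of thyroid hormone and of retinol-binding protein, had 8859.7 TPM ± 996.

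The members of the top 20 that were not plasma proteins were H19, the adult globins Hbb-bs, Hba-a1 and Hbb-bt, the mitochondrial genes mt-Co1 and mt-Cytb, and S100a9. H19, an imprinted long non-coding RNA expressed from the maternal copy in fetal tissues, had 18754, 21266, 19948, 19882 and 20543 TPM, within a narrow range in all 5 livers. Counts favour long transcripts, so the order by CPM differed: 14 genes were in both lists of 20. C3 (complement component 3, 9398 CPM ± 516), Fn1 (fibronectin, 6862 CPM ± 849), Pzp (5643 CPM ± 259), A2m (4177 CPM ± 777), Selenop (3893 CPM ± 437) and Apob (3697 CPM ± 435) were in the 20 highest by CPM alone. All 6 are secreted into plasma.

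The promoter windows of Alb and Afp are shown because these neighbouring genes of the albumin family together held much of the library, and Afp is known to be shut off in liver after birth while Alb stays high. They were read from RefSeq on the build GRCm38.p6 and run from 250 bases before to 50 bases after the annotated start, 5′ to 3′ along the gene. Capitals mark CCAAT or its complement ATTGG, the letters of the CCAAT box found in many promoters, searched on both strands. The Alb window is chr5:90460620-90460919 (+ strand) and the Afp window chr5:90490464-90490763 (+ strand).
Alb: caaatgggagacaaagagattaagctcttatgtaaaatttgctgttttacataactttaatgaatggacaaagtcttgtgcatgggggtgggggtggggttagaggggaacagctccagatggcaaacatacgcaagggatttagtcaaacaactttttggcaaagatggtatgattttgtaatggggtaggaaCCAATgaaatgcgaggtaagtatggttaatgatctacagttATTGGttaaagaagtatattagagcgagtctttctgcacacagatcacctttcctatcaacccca
Afp: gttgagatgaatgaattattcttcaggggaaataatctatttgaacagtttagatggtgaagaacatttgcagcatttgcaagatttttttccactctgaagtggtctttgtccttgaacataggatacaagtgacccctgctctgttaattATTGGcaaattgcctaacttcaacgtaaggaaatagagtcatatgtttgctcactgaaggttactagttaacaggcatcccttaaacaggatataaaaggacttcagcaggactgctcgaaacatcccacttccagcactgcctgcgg
The Alb window held 2 matches, the first beginning at position -56 and the last at -15 from the annotated start, and the Afp window held 1, beginning at -98. Among all 32851 RefSeq windows of this length, 37.4% held the letters, against 41 of 122 windows (33.6%) of the 102 plasma protein genes that have one. A match is a description of the letters and not of binding.

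The 130 plasma protein genes together held 36.4, 36.5, 35.6, 35.3 and 38.01% of the counts (36.4% ± 1.05), and 24.1% ± 0.776 without Alb. They took the same share of every library within 1.08-fold. The list is not complete, and adding the secreted Fn1 and A2m brought the share to 37.5% ± 1.10. Protein-coding genes that were in no other class held 55.6% ± 0.791. The 86 ribosomal proteins of the cytosol held 1.99% ± 0.104.

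Globin genes held 1.31, 1.19, 1.32, 1.61 and 1.22% of the counts, with the highest share in WT replicate 4. The mitochondrial genome held 1.67, 2.35, 2.10, 1.39 and 0.920%, a range of 2.55-fold, with WT replicate 2 highest and WT replicate 5 lowest. It was the class that differed most between the livers among those above 1%. Mitochondrial transcripts are poor in G and C, and the order of the 5 libraries is that of the GC correlations given above. With the GC and length trends of each library removed, the mitochondrial genes at 10 CPM or more held 1.52, 2.05, 1.95, 1.47 and 1.17%, a range of 1.76-fold. As shares of TPM the globins held 4.97% and the mitochondrial genes 3.69%.

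Long non-coding RNAs held 2.43% ± 0.104 of the counts, of which H19 alone made up 1.74% ± 0.0767. The next largest numbers of counts were those of Xist (1268 CPM ± 239) and Meg3 (492 CPM ± 59.7), an imprinted RNA expressed from the maternal copy. Xist is long, and per length it had 200.7 TPM ± 37.98, below BC024386 (212 TPM ± 5.74). Pseudogenes held 0.164% ± 0.00656, with the most counts on Serpina4-ps1 (89.9 CPM ± 25.3), Cyp2d37-ps (84.5 CPM ± 7.75) and Gm10736 (53.5 CPM ± 7.84), whose reads may be shared with their parent genes. Per length Gm10736 was the highest of these 3, with 1949.9 TPM ± 285 for Gm10736, 199 TPM ± 56.04 for Serpina4-ps1 and 119 TPM ± 11.2 for Cyp2d37-ps. The annotated length of Gm10736 is only 78 bases, and its high TPM comes from division by that length. It is not a reliable level. Genes annotated as nuclear ribosomal RNA held 0.513, 0.291, 0.498, 0.247 and 0.279%, nearly all of it at CT010467.1, with WT replicates 1 and 3 above the other 3. Lars2, a mitochondrial leucyl-tRNA synthetase gene, was highest in the same 2 libraries (476, 255, 363, 199 and 219 CPM). Ribosomal RNA is largely removed by the selection of polyadenylated RNA, and the part of that step in these shares was not tested. All counts on small RNA and other classes came to 0.0749% ± 0.00929. The precursor of Mir483 had 0.964, 0.814, 1.55, 1.63 and 0.828 CPM, from 10 to 22 counts. Libraries of polyadenylated RNA do not measure the mature microRNA, so these values do not give its level.

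**Figure D1:**
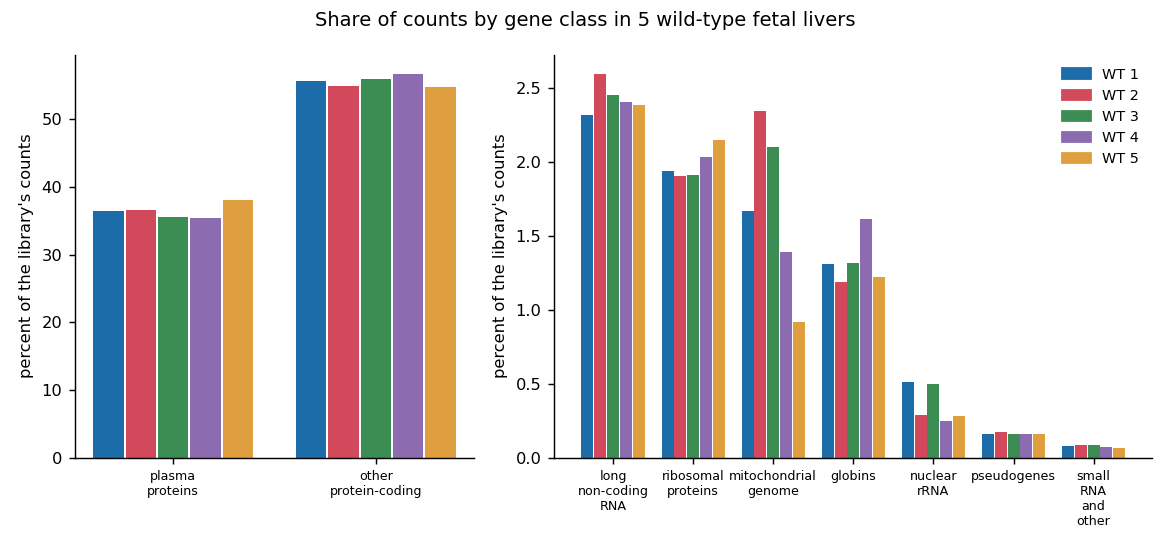
Share of the counts in each gene class, in percent of the library's counts, with a bar for each of the 5 WT libraries. Plasma proteins take 35.3 to 38.01% in every library, while the mitochondrial share runs from 0.920 to 2.35%.

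Hepatocyte and plasma protein genes (166 genes) together made up 43.6% ± 1.26 of TPM, against 7.36% ± 0.788 for 145 genes of blood-forming cells with the globins. Without the globins the blood-forming genes made up 2.39% ± 0.224. The share of the blood-forming genes depends on the scale, and with the globins it was 3.19% of counts and 4.08% of TPM with the median length of the annotated transcripts. These are shares of RNA over chosen lists and not shares of cells.

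All 36 hepatocyte markers were at 1 TPM or more in every library and at a mean of 10 CPM or more. They summed to 17124, 15125, 15912, 15421 and 16898 TPM. Among the highest were Fabp1 (2583 TPM ± 309.8), the fatty acid binding protein of liver, Fbp1 (1358 TPM ± 115), an enzyme of glucose synthesis, and Cyp2d26 (1273 TPM ± 75.2). Cyp2d26 varied little between the livers, with a biological CV of 6.25%. This is the coefficient of variation between the 5 libraries after the part that counting alone gives is taken away, and its median over the 8998 genes with a mean of at least 10 CPM was 7.90%. With 5 libraries, the 95% interval of a CV runs from 0.599 to 2.87 times its value. The most variable hepatocyte marker was Agxt, which detoxifies glyoxylate, at 104, 50.04, 46.9, 42.8 and 55.003 CPM. WT replicate 1 was far above the other 4, as it was for Bhmt, which methylates homocysteine (358, 144, 184, 179 and 204 CPM).

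All 23 liver transcription factors on the list were at 1 TPM or more in every library. Hnf4a was the highest (221 TPM ± 13.1), followed by Cebpa (197 TPM ± 14.9), Rxra (109 TPM ± 10.4) and Ppara (74.7 TPM ± 5.59). The lowest were Nr0b2 (4.51 TPM ± 2.48), Tbx3 (2.82 TPM ± 0.701) and Gata6 (2.43 TPM ± 0.497). The median biological CV of the 18 factors at 10 CPM or more was 8.37%, near that of all genes, and Onecut1 was the most variable, at 12.97, 28.9, 22.2, 22.5 and 22.3 CPM. Of the other factors, Nr1h4, Foxa3, Nr1i2, Prox1, Nr1h3, Nr3c1, Nr1i3, Foxa2, Gata4, Nr5a2, Cebpb, Onecut2 and Foxa1 lay between 5.38 and 69.6 TPM.

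The urea cycle and its carriers were expressed at high levels before birth. Cps1, which fixes ammonia in the first step, had 2933, 2511, 2506, 2037 and 2211 CPM and was highest in WT replicate 1, and all 8 genes of the list were at 1 TPM or more. Genes known to rise around birth were in part already present. Of 24, 18 were at 1 TPM or more in every library and 15 reached a mean of 10 CPM. Serpina3k (351 TPM ± 126), Cyp2e1 (189 TPM ± 72.8), a cytochrome P450, and G6pc (99.8 TPM ± 17.8), the last enzyme of glucose release, led them. Tdo2, which degrades tryptophan, had 3.24, 0.0814, 1.34, 0.855 and 0.690 CPM, and Cyp1a2 and Mup20 were at or below 0.966 CPM. Pck1, an enzyme of glucose synthesis, had 19.02, 8.38, 14.8, 15.5 and 11.6 CPM. The list was more variable between livers than all genes, with a median biological CV of 19.1%, and 10 of the 24 were lowest in WT replicate 2.

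Red cell genes were high in every liver. The erythroid list summed to 8855, 8324, 9521, 10082 and 8033 TPM over 32 matched genes, all of them at 1 TPM or more in every library. Slc4a1, the anion exchanger of the red cell membrane, led with 1400.5 TPM ± 165, followed by Alas2 (1119 TPM ± 119), which starts haem synthesis in red cells, Car2 (1088 TPM ± 100.3), a carbonic anhydrase, and Slc25a37 (564 TPM ± 72.8), which brings iron into mitochondria. The ratio of the hepatocyte to the erythroid sum was 1.93, 1.82, 1.67, 1.53 and 2.10 in TPM. WT replicate 4 had the lowest ratio and WT replicate 5 the highest, and 23 of the 32 erythroid genes were highest in WT replicate 4. So were 8 of the 9 genes of haem synthesis. The ratio depends on the scale, and its mean was 1.81 in TPM and 1.10 in CPM. In CPM it was below 1 in WT replicate 4 (0.909). The difference between the lists in mean log2(CPM + 1) of their members, turned back into a ratio, was 0.878. That value compares the average member of each list and not summed RNA, so it is a different measure.

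The 4 adult globin genes summed to 48686, 44176, 49561, 60363 and 45553 TPM, 5.50, 5.31, 5.21, 5.99 and 5.67 times the erythroid list. Hbb-bs had 29292, 26999, 28782, 34186 and 25513 TPM and Hbb-bt had 9439, 6857, 8733, 10556 and 7948 TPM. Hba-a1 had 7691, 8657, 9792, 13005 and 10064 TPM and Hba-a2 had 2263, 1664, 2254, 2617 and 2029 TPM. All 4 were highest in WT replicate 4. The alpha genes summed to 0.257 to 0.361 of the beta genes, but the copies within each pair are nearly identical, and reads that match both may have been dropped, so the ratio between the chains is uncertain. The ratio of Hbb-bs to Hbb-bt was 3.94 in WT replicate 2 and 3.10 to 3.30 in the other 4. The embryonic genes of the first wave of red cells were nearly silent. Hbb-y had 2.10, 1.95, 3.80, 2.18 and 3.04 CPM, Hbb-bh1 had 2.28, 1.06, 1.55, 2.80 and 1.38 CPM and Hba-x had 2.10, 1.14, 1.69, 1.71 and 2.90 CPM, while Hbb-bh2 had no count, which allows up to 0.263 CPM in the shallowest library. Together they made up 0.0536, 0.0387, 0.0596, 0.0464 and 0.0632% of globin TPM.

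Among white cells, neutrophil genes were the highest, and all 20 were at 1 TPM or more in every library. The list summed to 13574, 10675, 8832, 12356 and 11322 TPM, between the hepatocyte and the erythroid sums in WT replicates 1, 2, 4 and 5 and below both in WT replicate 3. S100a9 (6521, 4854, 4112, 5917 and 5874 TPM) and S100a8 (2509, 2118, 1634, 2165 and 1474 TPM), the subunits of calprotectin, made up 64.9 to 66.5% of it. Ngp (1468 TPM ± 193) and Camp (713 TPM ± 157), both proteins of secondary granules, came next. WT replicate 3 was lowest for 17 of the 20 genes and WT replicate 1 highest for 12.

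The megakaryocyte list had the same 2 extremes. Its sum was 983, 688, 477, 622 and 678 TPM, with 16 of 17 genes highest in WT replicate 1 and 15 lowest in WT replicate 3. Ppbp and Pf4, chemokines of platelet granules, had 125, 79.5, 51.6, 64.4 and 61.4 CPM and 68.6, 48.7, 33.4, 41.04 and 53.5 CPM. The median biological CV of its 12 members at 10 CPM or more was 24.6%, against 10.2% for the erythroid and 13.8% for the neutrophil list. The defining platelet gene Gp1bb was listed at 0 to 0.118 TPM, while its partner Gp1ba was at 11.6 to 23.7 TPM.

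Macrophage and Kupffer cell genes summed to 2486, 2257, 2199, 2520.2 and 2605 TPM, all 18 at 1 TPM or more, with Lyz2 (825 TPM ± 134), which neutrophils also express, C1qb (291 TPM ± 25.8) and C1qa (248 TPM ± 19.5) leading. The B lymphoid list summed to 349, 273, 258, 328 and 348 TPM, led by Ighm (117 TPM ± 21.4), Cd79b (30.7 TPM ± 5.603) and Vpreb3 (28.8 TPM ± 3.71). The T and NK cell list summed to only 29.3 to 34.9 TPM, with 4 of 11 genes at 1 TPM in every library and Cd3d at 0 to 0.876 CPM. Stem and progenitor genes were low but present, with Myb at 38.4 to 48.7 CPM and Kit at 33.6 to 41.3 CPM, and their sum was 49.8 TPM ± 2.99.

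The non-blood cells of the liver were seen at lower levels. Sinusoidal endothelium summed to 518, 521, 576, 548 and 563 TPM over 20 genes, all of them at 1 TPM or more, led by Lyve1 (71.2 TPM ± 8.32), a hyaluronan receptor. The stellate and mesenchymal list summed to 368, 469, 566, 584 and 441 TPM. It was lowest in WT replicate 1, where 14 of the 20 genes had their lowest value, and highest in WT replicates 3 and 4. Col1a1, a chain of type I collagen, had 60.4, 118, 177, 204 and 103 CPM. The bile duct list was led by Spp1 (43.2 to 122 TPM), with Krt19 at 5.72 to 12.4 TPM.

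Genes of 3 neighbouring or attached tissues stood out in single libraries. Pancreatic genes were high in WT replicate 3 and, less so, in WT replicate 4, with a list sum of 25.9, 24.4, 142, 63.5 and 32.2 CPM. Ctrb1, a chymotrypsinogen of acinar cells, had 0, 0.244, 34.8, 9.87 and 0 CPM, and 17 of the 21 members with a count were highest in WT replicate 3. Pnliprp1, a lipase-related protein of the pancreas, had 5.00, 5.86, 37.7, 20.99 and 10.9 CPM, again with WT replicates 3 and 4 highest. Placental and decidual genes were high in WT replicate 2, with a list sum of 3.42, 74.1, 10.5, 4.04 and 5.11 CPM, and 9 of the 10 members with a count were highest there. Psg16, a pregnancy-specific glycoprotein, had 1.84, 22.05, 3.17, 1.87 and 1.93 CPM, and Tpbpa, made by spongiotrophoblast, had 0.613, 13.8, 1.20, 0.233 and 0.345 CPM. Kidney genes reached 3.59 CPM in sum in WT replicate 3 and at most 0.814 CPM elsewhere. Lung and skin lists were at 0.651 to 2.39 CPM and 0.789 to 1.95 CPM in sum. Striated muscle reached 10.3 to 15.5 CPM. Whether tissue carried over at dissection has a part in these values was not tested.

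**Figure D2:**
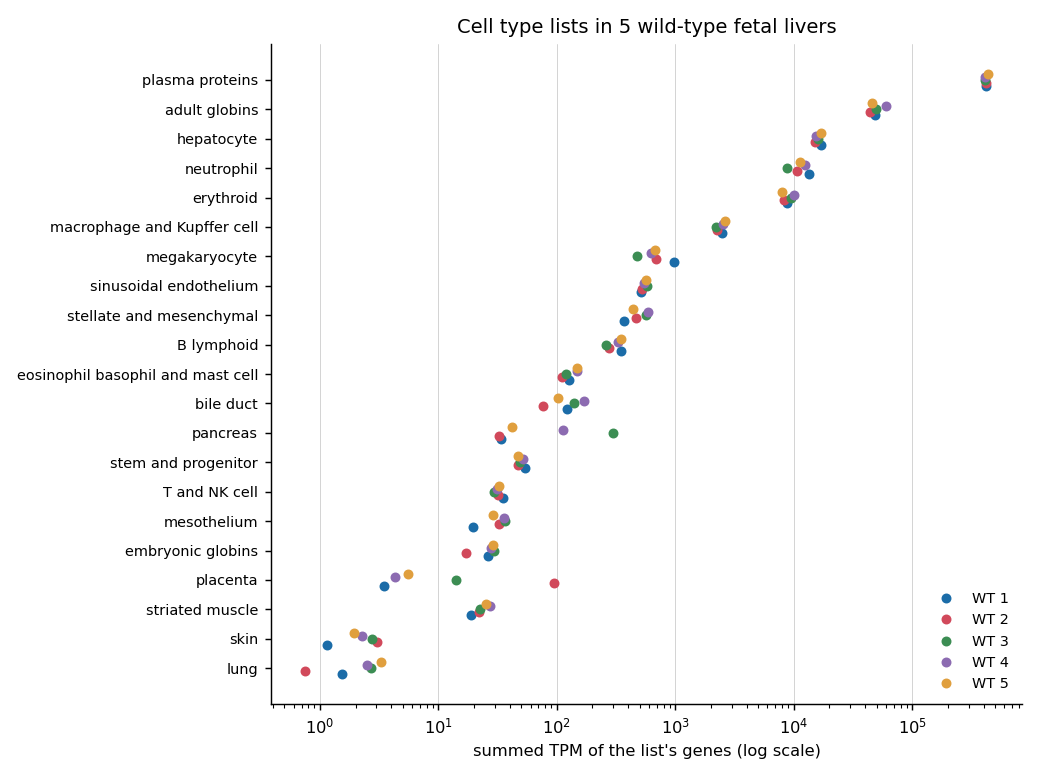
Summed TPM of each cell type list on a log scale, with a point for each of the 5 WT libraries. After plasma proteins and adult globins, the hepatocyte, neutrophil and erythroid sums are the highest shown in every library, with hepatocyte up to 2.10 times erythroid, while the pancreas list is highest in WT replicate 3 and the placenta list in WT replicate 2.

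The livers differed little for most genes and strongly for few. Of the 8998 genes with a mean of at least 10 CPM, 471 (5.23%) had a biological CV above 20% and 9 above 50%. The 95th percentile was 20.2%, and 914 genes spread no more than counting gives. Genes of plasma proteins had a median of 7.81%, ribosomal proteins 6.10%, long non-coding RNAs 10.7% and mitochondrial genes 38.7%. The 50 most variable genes ended at 36.6% for Cyp2c40 and 36.4% for Depp1, with mt-Rnr2 (36.4%) and Saa3 (36.04%) just outside. Because these genes were picked for their spread over the same 5 libraries, the values below describe it and test nothing.

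**Figure D3:**
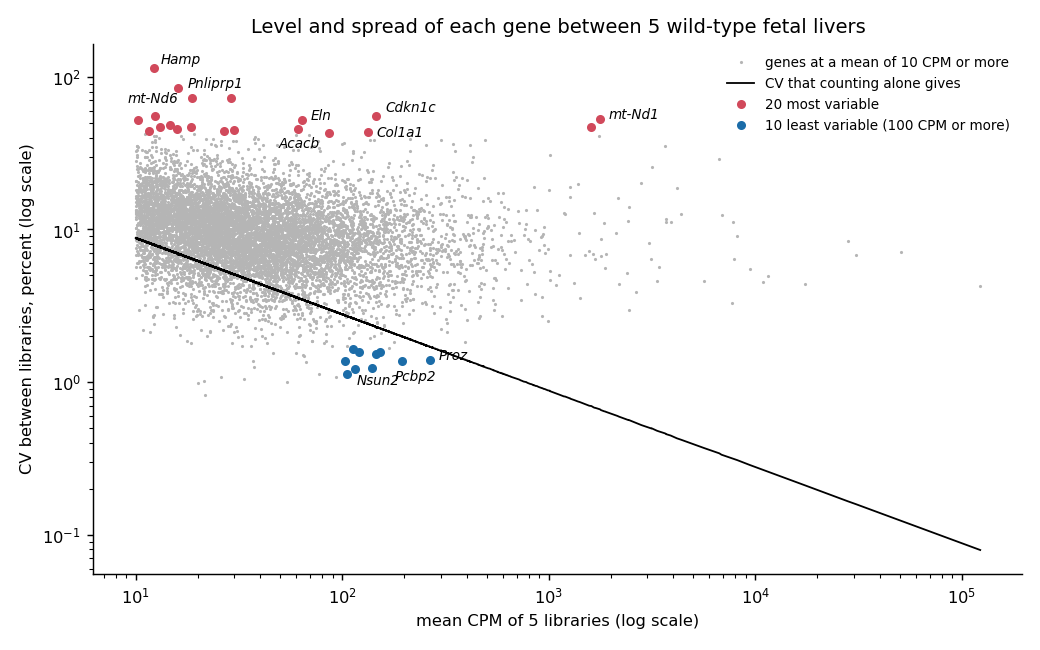
CV of CPM between the 5 WT libraries in percent against mean CPM, both on log scales, for genes at a mean of 10 CPM or more, with the 20 most variable and the 10 least variable genes (100 CPM or more) marked. Hamp stands highest, and the least variable genes lie near the CV that counting alone gives.

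The most variable gene was Hamp, which encodes hepcidin, the liver hormone that blocks iron export. Its 5 values were 7.01, 35.5, 14.3, 2.95 and 1.31 CPM, a biological CV of 114%. WT replicates 2 and 3 were high and WT replicates 4 and 5 low, and removal of the GC and length trends left the CV at 115%. Of the 13 acute phase genes, 2, Hamp among them, were highest in WT replicate 2 and 7 were lowest there. Hp (haptoglobin) had 1622, 916, 1460.1, 1422 and 1524 CPM, lowest in WT replicate 2, and Saa3 had 20.4, 12.7, 19.6, 28.1 and 34.5 CPM, highest in WT replicate 5. Fth1, a subunit of the iron store ferritin, was among the 50 least variable genes, at 916, 953, 954, 899 and 912 CPM.

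The immediate early list was highest in WT replicate 4 for 10 of its 15 genes. Egr1, a transcription factor induced by growth signals, was its most variable member at 10 CPM or more, with 39.5, 23.4, 24.9, 59.5 and 39.2 CPM. Its biological CV was 38.8%, and 33.5% with the GC and length trends removed. Over the 13 members that could be corrected for them, the sum in WT replicate 4 was 1.35 times the mean of the other 4 before and 1.27 times after.

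Of the 9 mitochondrial genes at 10 CPM or more, 5 were among the 50 most variable. mt-Nd6, the only one of the 9 on the opposite strand of the mitochondrial genome, had 13.8, 36.9, 29.01, 9.48 and 4.55 CPM. mt-Nd1 had 1391, 3015, 2452, 1268 and 726 CPM and mt-Nd2 had 1550.0, 2531, 2163, 1131 and 679 CPM, all 3 being subunits of complex I. In each of the 3 WT replicate 2 was highest and WT replicate 5 lowest. The most abundant of the 9, mt-Co1, spread less, at 6873, 8825, 8007, 5921 and 3865 CPM and a biological CV of 28.8%. With the trends removed the CV was 57.4% for mt-Nd6, 42.1% for mt-Nd1 and 31.9% for mt-Nd2, against 72.7%, 52.8% and 46.6% before. Of the 5, mt-Nd6 and mt-Nd1 then stayed among the 50 most variable, at ranks 4 and 16, while mt-Nd2, mt-Nd5 and mt-Rnr1 went to ranks 61, 92 and 124.

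Several genes of the extracellular matrix were lowest in WT replicate 1. Eln (elastin) had 29.3, 51.7, 92.7, 105 and 40.4 CPM and Fbn2 (fibrillin 2) had 7.54, 11.96, 21.7, 22.9 and 9.32 CPM. Both were lowest in WT replicate 1 and highest in WT replicate 4, as was Col1a1. The biological CV was 51.99% for Eln, 48.1% for Fbn2 and 43.6% for Col1a1. Of the 13 genes that lay more than 2-fold below the median of the other 4 livers in WT replicate 1, named by that rule, Eln, Fbn2, Col1a1, Papln, Col1a2, Col6a2, Plod2, Tnxb, Sparcl1, Col6a1 and Mmp2 encode matrix proteins or enzymes that modify them. Not all matrix genes had the same order of libraries. Comp, a cartilage matrix protein, had 6.57, 18.2, 8.87, 12.9 and 13.7 CPM, highest in WT replicate 2, and Papln had 8.85, 11.4, 18.3, 23.6 and 22.6 CPM, with WT replicate 5 near its highest value. The summed stellate and mesenchymal list, which holds Col1a1 and Col1a2, was also lowest in WT replicate 1. So was the mesothelium list, at 24.6, 40.7, 46.5, 45.9 and 35.2 CPM, with 6 of 8 members lowest there. WT replicates 3 and 4, where Eln, Fbn2 and Col1a1 were highest, also had the most counts on pancreatic genes, as given above. The part of other tissues in these values was not tested. With the GC and length trends removed, the biological CV was 47.6% for Eln, 44.7% for Fbn2 and 39.7% for Col1a1, and the stellate and mesenchymal list in WT replicate 1 was 0.669 of the mean of the other 4 in place of 0.646.

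Some enzymes of hepatocytes were highest in WT replicate 1. Hsd17b6, a hydroxysteroid dehydrogenase, had 23.8, 9.19, 8.24, 12.05 and 12.7 CPM, and Tat, which degrades tyrosine and rises around birth, had 27.6, 8.54, 16.7, 13.6 and 12.6 CPM. WT replicate 1 lay past Dixon's 95% limit for a value apart from the rest of its group for Hsd17b6 but not for Tat. Both genes were picked for their spread over these same libraries, so the limit is no test for them. Without WT replicate 1 the biological CV went from 46.3% to 18.7% for Hsd17b6 and from 45.1% to 25.1% for Tat. A lower CV follows from leaving out the farthest library. Of the 36 hepatocyte markers, 19 were highest in this library, as were 12 of the 24 genes that rise around birth.

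Genes of fatty acid synthesis were low in WT replicate 2. The list of 14 genes of lipogenesis and of the response to glucose summed to 2615, 1625, 2477, 3065 and 2591 CPM, and all 14 were lowest in WT replicate 2. Its median biological CV of 26.1% was the highest of the metabolic lists. Scd1, which desaturates fatty acids, had 517, 225, 459, 554 and 400.3 CPM, and Fasn, the fatty acid synthase, had 516, 241, 396, 537 and 442 CPM. The sum in WT replicate 2 was 0.605 of the mean of the other 4, and 0.633 with the GC and length trends removed, where 14 of the 14 were lowest there. Outside the list, Acacb, which makes the malonyl-CoA that limits fatty acid oxidation, had 72.04, 29.3, 118, 117 and 97.2 CPM, and its biological CV of 42.6% went to 21.02% without WT replicate 2. With the trends removed and all libraries kept it was 39.5%.

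Genes of sterol synthesis followed in part. Of 19, 12 were lowest in WT replicate 2, and the list summed to 4135, 2993, 3412, 4013 and 3754 CPM. With the trends removed, 11 were lowest there, and the sum in WT replicate 2 was 0.802 of the mean of the other 4 in place of 0.782. Insig1, which holds back the activation of the sterol response, was the most variable, at 580.1, 213, 336, 529 and 415 CPM. Cyp2j5, an epoxygenase, had 42.9, 9.44, 27.4, 27.4 and 27.1 CPM, and Chrna4, a nicotinic acetylcholine receptor subunit, had 16.04, 2.20, 12.95, 20.4 and 10.1 CPM. Both were lowest in WT replicate 2, and without it their biological CVs went from 43.8% to 24.5% and from 54.7% to 28.6%.

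Among the 20 most variable genes, 4 were non-coding. Kcnq1ot1 is given with its neighbours below. Gm30505 had 44.1, 105, 74.1, 44.2 and 38.6 CPM, AC117816.1 had 25.6, 45.8, 41.7, 23.01 and 13.8 CPM and Mir17hg, the host transcript of the miR-17 to miR-92 cluster, had 12.4, 18.3, 14.2, 8.47 and 4.90 CPM. All 3 were highest in WT replicate 2 and lowest in WT replicate 5. With the GC and length trends removed the biological CV went from 45.7% to 43.97% for Gm30505, from 43.6% to 36.2% for Mir17hg and from 44.4% to 28.4% for AC117816.1, and the highest and the lowest library stayed the same in all 3.

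Across the 50 most variable genes, WT replicate 2 had the highest value for 19 and the lowest for 14, while WT replicate 3 had the highest for 5 and the lowest for 4. Among all ranked genes, the number more than 2-fold above or below the median of the other 4 livers was 7 and 25 for WT replicate 2, 1 and 22 for WT replicate 5, 4 and 13 for WT replicate 1, 5 and 2 for WT replicate 4, and 5 and 1 for WT replicate 3. The first principal component, which held 47.6% of the variance, placed WT replicate 2 at one end and WT replicate 5 at the other, as the GC trend does.

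**Figure D4:**
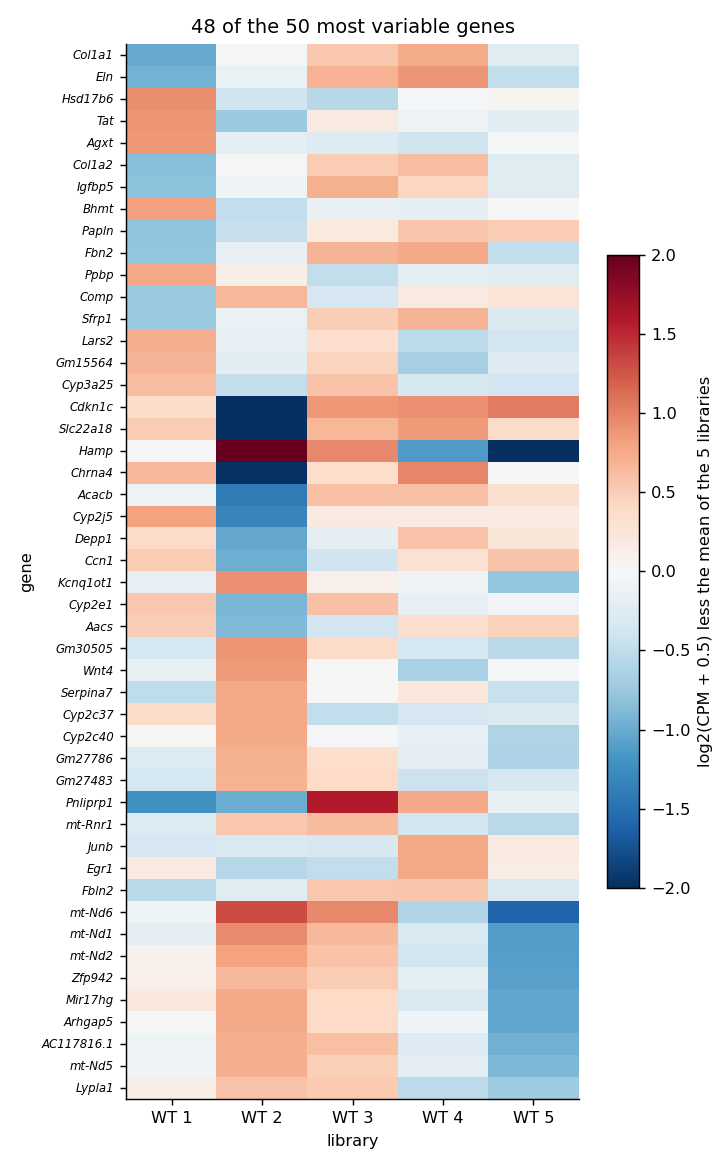
Of the 50 most variable genes, 48 (vertical axis) in the 5 WT libraries (horizontal axis), coloured by log2(CPM + 0.5) less the mean of the 5 libraries. WT replicate 2 holds the highest value for 19 genes, the largest number of any library.

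In WT replicate 2 the imprinted Kcnq1 domain of chromosome 7 differed from the other 4 livers. Kcnq1ot1 is a long RNA transcribed from the paternal copy against the direction of Kcnq1, and it silences neighbours on that copy, so that Cdkn1c, Slc22a18 and Phlda2 are expressed mainly from the maternal copy. The domain was singled out after its values were seen, and ratios below are WT replicate 2 over the pooled other 4 libraries, with exact Poisson 95% intervals that cover counting error only. Cdkn1c, an inhibitor of the cell cycle and of growth (chr7:143458339-143461050, GRCm38, - strand), had 131, 10.8, 187, 192 and 210.0 CPM, a ratio of 0.059 (0.050 to 0.070). Slc22a18, a membrane transporter, had 11.7, 1.14, 13.2, 14.9 and 10.6 CPM, a ratio of 0.0907 (0.0493 to 0.153). Each was below the lowest of the other 4 libraries. The gap in CPM between WT replicate 2 and the nearest library was 0.605 of the range for Cdkn1c, 0.683 for Slc22a18 and 0.630 for Kcnq1ot1. All 3 were under Dixon's 95% limit of 0.71. For Cdkn1c and Slc22a18 even no count at all in WT replicate 2 would have stayed under it. The limit therefore cannot judge how far these genes fell.

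Phlda2, a growth-limiting gene best known from placenta, was low throughout at 3.51, 0.0814, 3.66, 4.04 and 5.11 CPM, with 1 count in WT replicate 2 and 40 to 74 in the others. Its ratio was 0.0198, with an upper bound of 0.111. Kcnq1ot1 (chr7:143203458-143296549, - strand) differed the other way, at 15.2, 32.8, 18.3, 16.1 and 9.80 CPM, a ratio of 2.22 (1.96 to 2.505). The size of this difference moved with the processing. The ratio of Kcnq1ot1 to the mean of the others was 2.21 before and 1.87 after the GC and length trends were removed. Without WT replicate 2, the biological CV of Cdkn1c was 18.8% in place of 55.5%, that of Slc22a18 12.9% in place of 51.5% and that of Kcnq1ot1 23.2% in place of 46.2%.

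Within 750 kb of the start of Kcnq1ot1, 26 genes were at a mean of 1 CPM or more. Of these, 16 lay within 1.5-fold of the other 4 livers in WT replicate 2. Cd81, on the side of Kcnq1, had 115, 104, 118, 111 and 109.5 CPM, and Nap1l4, beyond Phlda2, had 87.03, 80.1, 78.1, 77.2 and 85.4 CPM. The imprinted pair at the far end of the window was also near the others, with ratios of 1.07 for H19 and 1.09 for Igf2. The other 10 included Cdkn1c, Slc22a18, Phlda2 and Kcnq1ot1. Among them was also the transcript Gm44732, which lies on the strand opposite Cdkn1c over 98.4% of its length. So were Gm27483 and Gm27786, which lie on the opposite strand within H19, and Gm33148 near H19. The last were Mir483 and Tnfrsf23, which had few counts in these libraries and whose intervals include 1. Among the other 23 imprinted genes on the list, H19 and Igf2 included, the ratio lay between 0.728 (Snrpn) and 1.48 (Rtl1), both of them low in counts. With a single liver that departs, no statement about how often this occurs in WT fetuses can be made.

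**Figure D5:**
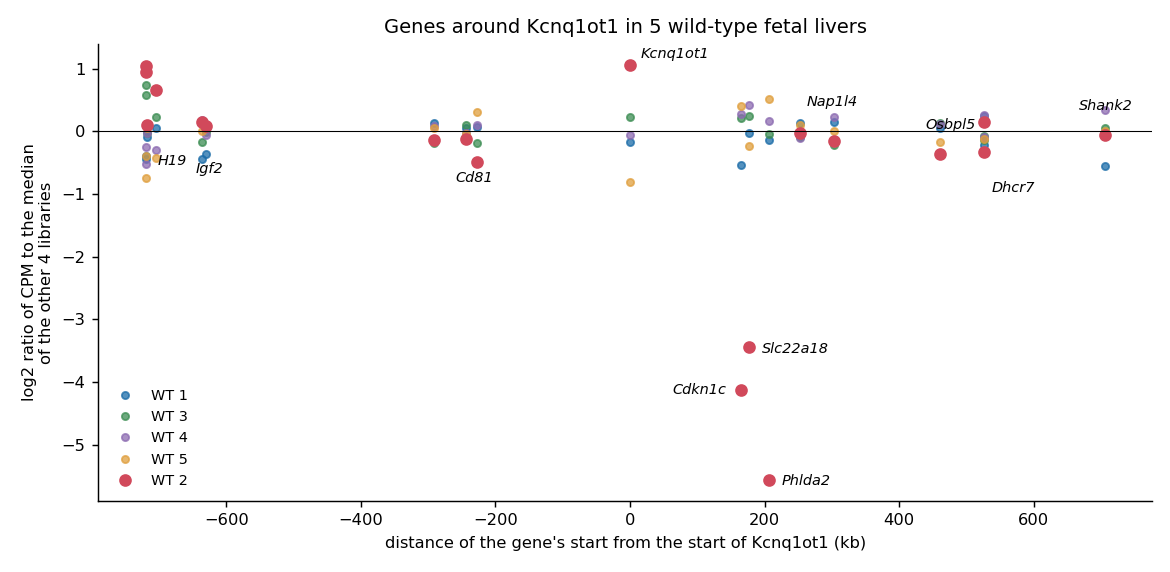
Log2 ratio of each gene's CPM to the median of the other 4 WT libraries, against the distance of its start from the start of Kcnq1ot1 in kb, for each of the 5 libraries. In WT replicate 2, Cdkn1c, Slc22a18 and Phlda2 lie far below 0 and Kcnq1ot1 above it, while H19, Igf2, Cd81 and Nap1l4 lie near 0.

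The promoter windows of Kcnq1ot1 and Phlda2 are shown because they belong to the RNA and to a neighbour that differed in opposite directions in WT replicate 2, and because the imprint of this domain is a methylation mark on CG letters at the start of Kcnq1ot1. They are chr7:143296498-143296797 (- strand) and chr7:143502475-143502774 (- strand) of GRCm38.p6 from RefSeq, 5′ to 3′ along the gene, with each CG in capitals. No methylation was measured in these livers.
Kcnq1ot1: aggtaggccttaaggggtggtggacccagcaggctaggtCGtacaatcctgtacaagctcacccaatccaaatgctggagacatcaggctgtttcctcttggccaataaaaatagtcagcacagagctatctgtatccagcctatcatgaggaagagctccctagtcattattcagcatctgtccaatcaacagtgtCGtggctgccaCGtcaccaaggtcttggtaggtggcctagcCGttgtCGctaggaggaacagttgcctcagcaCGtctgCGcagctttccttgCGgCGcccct
Phlda2: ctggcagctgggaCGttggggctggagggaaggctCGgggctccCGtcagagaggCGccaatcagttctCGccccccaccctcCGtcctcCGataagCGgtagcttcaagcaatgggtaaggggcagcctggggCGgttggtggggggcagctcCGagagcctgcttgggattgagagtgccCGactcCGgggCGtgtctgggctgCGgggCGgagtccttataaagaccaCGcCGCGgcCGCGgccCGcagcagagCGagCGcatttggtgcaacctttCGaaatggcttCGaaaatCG
The Kcnq1ot1 window held 9 CG and the Phlda2 window 26, against a median of 7 over all RefSeq windows. At least as many were found in 45.8% and 16.9% of all windows. The window of Slc22a18, a neighbour that was also lower in WT replicate 2, is not shown. It held 2 CG, and 85.9% of all windows held at least as many.

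The fetal growth genes of the liver were led by Afp and H19. Cd24a (858 TPM ± 114), a surface glycoprotein of immature cells, and Gpc3 (657 TPM ± 76.8), a proteoglycan that limits growth, came next on the list of 14 oncofetal genes, all of which were at 1 TPM or more in every library. Igf2, the fetal growth factor next to H19, had 56.5, 74.8, 72.01, 70.3 and 74.4 TPM. In the annotation 62.8% of its exonic bases are shared with another gene on the same strand, so that its level may be understated. As counted, the ratio of H19 to Igf2 in TPM was 332, 284, 277, 283 and 276. Igf1, the growth factor of later life, had 22.9, 22.9, 27.2, 22.3 and 16.1 CPM. Dlk1, an imprinted ligand-like protein, had 153, 209.7, 275, 282 and 261 CPM, lowest in WT replicate 1. All 28 proliferation genes were at 10 CPM or more, led by Mki67 (397 TPM ± 37.8), and 17 of them were highest in WT replicate 1 and 10 in WT replicate 4. Their sum was 2531, 2172, 2401, 2609 and 2236 TPM, highest in WT replicate 4.

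The 10 least variable genes at a mean of 100 CPM or more varied less than counting alone gives. Nsun2, an RNA methyltransferase, had 105, 107, 106, 104 and 107 CPM, a CV of 1.13% where counting alone gives 2.70%. Glyr1 (114 to 118 CPM), Narf (138 to 143 CPM), Gas5 (102 to 106 CPM), the host of small nucleolar RNAs, and Pcbp2 (190.4 to 197 CPM), an RNA-binding protein, followed. Proz, an anticoagulant plasma protein, had 270.1, 267, 266, 260.2 and 264 CPM, and so a secreted protein of hepatocytes was among the most even genes. Jak1 (143 to 148 CPM), a kinase of cytokine receptors, Brd2 (118 to 123 CPM), Qprt (148 to 154 CPM), an enzyme of NAD synthesis, and Uggt1 (109 to 114 CPM), a checkpoint of glycoprotein folding, complete the 10 lowest.

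Of the 1337 genes ranked, 22 had a CV below that of counting, and all of them were among the 50 lowest. The highest CV in the 50 was 2.87% (U2af2, after Btf3 at 2.86%), and Eif3h (2.88%) and 1300017J02Rik (2.92%) lay just outside. The median of all 1337 was 7.98%. Since counting alone gives CVs of this size, the order within the 50 was not read further.

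Genes often used as a reference differed in how even they were. The biological CV was 1.53% for Sdha, 1.81% for Pgk1, 2.98% for Ppia, 3.50% for Actb and 3.62% for Gusb. It was 9.12% for Gapdh, 14.8% for Hprt and 17.99% for Tbp. Sdha, a subunit of succinate dehydrogenase, had 306, 307, 298, 291 and 304 CPM, while Hprt, an enzyme of purine salvage, had 66.3, 70.5, 74.98, 54.5 and 53.1 CPM, lowest in WT replicate 5. The median over the 15 reference genes was 5.29%, below the 7.90% of all genes at 10 CPM or more.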

How the data were processed

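Polyadenylated liver RNA of 5 WT fetuses was analysed. Per the study's methods, the authors prepared stranded libraries, sequenced them as paired ends, aligned the reads with STAR to the GRCm38 genome and counted them per Ensembl gene. The deposited values are raw counts per gene, whole numbers without normalization. The treatment of reads with several matches and the strand setting of the counting are not given in the sources used here. Groups came from the labels, and the libraries of the other genotype were not used.

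CPM was computed on the total over all 55401 genes, and TPM from the union exon length of GENCODE M21, which holds 55141 of them. The other 260 genes had 1275 counts in all. The red cell marker Ahsp was not matched. The biological CV was the square root of the squared CV of CPM less the squared counting CV. Class shares had Wilson 95% intervals of at most 0.0288 percentage points to either side, and all intervals cover counting error only. Python 3.11.15, pandas 2.3.3, scipy 1.17.1, R 4.3.3 and edgeR 4.0.16 were used, and the CV ranking was tested on simulated data.

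The topic, the gene lists and the classes were chosen with earlier results of these data known. Genes were named if they were among the 20 highest by CPM or TPM, the 20 most or 10 least variable, or the 4 highest or the most variable of a list, with the globins, reference genes and liver transcription factors. Not every gene that the rule takes is named. Other named genes, among them Lars2, Bhmt, Fth1, Saa3, the placental and pancreatic genes and the Kcnq1 domain with its window, were chosen after their values were seen. The alternatives were other scalings (edgeR TMM and RLE), other lengths, other minimum levels, other measures of spread, removal of GC and length trends, and each library left out in turn. The longest transcript as length, the trend-corrected list sums and all alternatives for the Kcnq1 domain were added after the data were seen. The CCAAT letters were chosen late, after other letters had been searched, and a few genes withheld for evaluation are not reported here.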

Additional observations from a re-analysis of the deposited data

Results flagged for a closer look

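In groups of 5 libraries, the highest or lowest value lay farther from the rest than Dixon's 95% limit for 19 of the 203 results examined (9.36%). Chance alone gives about 1 in 20 for results that are independent and not chosen by their values, and many of these were chosen so or overlap, so that the share is not compared with it. The library that lay apart was WT replicate 1 for 8, WT replicate 2 for 8, WT replicate 3 for 2, WT replicate 4 for 0 and WT replicate 5 for 1. The order was different over all genes at 10 CPM or more. There it was WT replicate 5 for 162 genes, WT replicate 1 for 110, WT replicate 2 for 87, WT replicate 4 for 50 and WT replicate 3 for 39. Of the 50 most variable genes, 3 had such a library, against 4.98% of the 8998 genes at 10 CPM or more.

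In WT replicate 1, the value lay apart from those of the other 4 livers for heat shock list, summed CPM (1563), H19 over Igf2, TPM (332), Agxt, CPM (104), Bhmt, CPM (358), Hsd17b6, CPM (23.8), Igf2, CPM (115), Kit, CPM (41.3) and Serpina1e, CPM (9488).

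In WT replicate 2, the value lay apart from those of the other 4 livers for share of pseudogenes, percent of counts (0.176), embryonic globins list, summed CPM (4.15), placenta list, summed CPM (74.1), integrated stress response list, summed CPM (1360.0), Hbb-bs over Hbb-bt, TPM (3.94), Hp, CPM (916), Psg16, CPM (22.1) and Tpbpa, CPM (13.8).

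In WT replicate 3, the value lay apart from those of the other 4 livers for kidney list, summed CPM (3.59) and Ctrb1, CPM (34.8).

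In WT replicate 5, the value lay apart from those of the other 4 livers for Tbx3, CPM (9.46).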

How the results depend on the processing

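As shares of TPM in place of counts, plasma proteins held 41.95%, other protein-coding genes 41.3%, globins 4.97%, mitochondrial genes 3.69%, ribosomal proteins 3.39%, long non-coding RNA 2.68%, small RNA 0.848% and pseudogenes 0.786%. Over nuclear protein-coding counts alone, plasma proteins held 38.2%, other protein-coding genes 58.4%, long non-coding RNA 2.55% and pseudogenes 0.172%. The ratio of summed hepatocyte to erythroid RNA was 1.10 in CPM and 1.07 with the median transcript length. For the average list member, from the difference in mean log2(CPM + 1), it was 0.878. Hepatocyte and plasma protein genes made up 37.8% in CPM and 51.8% with the median length, and blood-forming genes 3.19% and 4.08%. Of the 50 most variable genes, 48 remained under TMM, 36 with the GC and length trends removed, 28 to 41 with a library left out, 18 at a minimum of 50 CPM (which only that number passes), 4 at a minimum of 1 CPM and 0 with none, where genes of few counts take the list. Of the 50 least variable, 30 remained under TMM, 28 under RLE, 26 at 50 CPM, 14 at 200 CPM (which only that number passes) and 20 to 34 with a library left out. The Kcnq1ot1 ratio in WT replicate 2 was 1.87 with the trends removed, and the low ratios of Cdkn1c and Slc22a18 were 0.0671 and 0.0990 there. The cause of these shifts was not tested. The hepatocyte to erythroid ratio was thus below 1 for the average list member on the log2 scale, which is a different measure from the ratio of sums. No paired analysis was possible because there is 1 group.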

Other observations

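The 24 interferon-stimulated genes were at 1 TPM or more in every library and summed to 1175, 1120.5, 1228, 1253 and 1314 TPM, led by Isg15 (372 TPM ± 37.2) and Rsad2 (228 TPM ± 16.6). Of them, 15 were highest in WT replicate 5. Hypoxia genes summed to 734, 850.2, 897, 871 and 876 TPM, with Bnip3 (235 TPM ± 22.6) and Ndrg1 (206 TPM ± 20.2) leading. Clock genes summed to 242, 225, 232, 255 and 254 TPM, and the clock output gene Dbp was low in all livers (1.67, 1.06, 0.774, 1.17 and 0.621 CPM).

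Genes of fatty acid oxidation and fasting summed to 5370.1, 4679.6, 4957, 5048 and 5879 TPM. Fgf21, the fasting hormone of liver, had 0.0876, 0.570, 0.0704, 0.311 and 0.138 CPM. Glucocorticoid-responsive genes summed to 187, 218, 224, 211 and 201.4 TPM, and the integrated stress response list to 1288, 1355, 1291, 1330.2 and 1285 TPM, with Atf5 (517 TPM ± 35.8) highest. The heat shock list summed to 1291, 1142, 1115, 1122 and 1086 TPM. Acute phase genes summed to 5170.4, 3924, 4779, 4609 and 4766 TPM, and Saa1 and Saa2, which inflammation induces strongly in adult liver, were at or below 0.175 CPM.

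Among lists of other organs, the intestine list summed to 1055, 853, 681, 745 and 711 TPM, nearly all of it Tff3 (179, 141, 112, 123 and 116 CPM), a trefoil peptide, with Cdx2 without a count. The adrenal list summed to 316, 473, 367, 352 and 379 TPM, nearly all of it Hsd3b1 (203, 306, 234, 225 and 242 CPM), while Cyp21a1 and Nr5a1 had no count. The eosinophil, basophil and mast cell list was led by Prg2 (104 TPM ± 16.02), and the mesothelial list by Upk3b (10.1 TPM ± 2.17).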
